A study of Mus musculus with 5 samples.

Results

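Mouse embryonic stem cells kept for 72 h in 200 mM sorbitol with leukaemia inhibitory factor (LIF), the library named S200, were set against cells of the same line kept for 72 h without LIF and without sorbitol, the library named ND. The comparison holds every barcode with at least 500 detected genes in either library, 9985 of 10000 in S200 and 9240 of 10000 in ND. Together these are 19225 barcodes, of 49074 that pass the same minimum in the 5 libraries of the series and of 50000 in its files. Unique molecular identifier (UMI) counts were summed per gene over those barcodes and scaled to CPM (counts of a gene per 1000000 counts of the library), so each value is 1 number per library.

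The line is REX-1 RFP, in which a red fluorescent protein is driven by the Rex1 promoter (Rex1 is Zfp42, a naive pluripotency marker). All cells were first grown with LIF until they covered part of the dish and then put under their condition for 72 h. S200, S250 and S300 had LIF and 200, 250 and 300 mM sorbitol, NS had LIF, and ND had neither LIF nor sorbitol. What NS and ND abbreviate is not stated. S200 and ND differ in both LIF and sorbitol, and the effects of these cannot be told apart in this comparison. NS, which shares LIF with S200 and the lack of sorbitol with ND, is therefore given beside them. There is 1 library per condition, so no p-value is printed. A ratio is a statement on a pair of libraries rather than on their conditions, and a batch effect cannot be told apart from the condition. Square brackets hold 95% intervals that cover counting error only.

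S200 and ND are close in depth. The kept barcodes held 9218297 UMIs in S200 and 7906116 in ND, with a median of 888 UMIs and 582 genes per barcode in S200 and 827 UMIs and 551 genes in ND. Mitochondrially encoded genes took 5.61% of UMIs in S200 and 4.98% in ND, and ribosomal protein genes 25.3% in S200 and 25.4% in ND. S200 and ND shared 47 barcode sequences among those kept. NS was deeper, with a median of 2135 UMIs. All 8 embryonic stem cell markers looked at (Pou5f1, Sox2, Nanog, Zfp42, Esrrb, Sall4, Dppa5a and Tdgf1) exceeded 5 CPM in every library, with a summed level of 8150 CPM in S200 and 5573 CPM in ND. Dppa5a alone made up 5931 CPM of this in S200 and 3653 CPM in ND, so the sums mostly follow that gene. Of 7 fibroblast markers, Col3a1, Lum and Postn had 0 UMIs in both libraries and the summed level was 9.33 CPM in S200 and 2.40 CPM in ND. The summed levels of 5 primitive endoderm markers (13.7 CPM in S200 and 7.97 in ND), 4 trophoblast markers (7.38 in S200 and 15.2 in ND), 4 neuroectoderm markers (10.6 in S200 and 12.1 in ND), 4 mesoderm markers (3.04 in S200 and 1.26 in ND) and 2 blood markers (0.11 in S200 and 0.13 in ND) were likewise far under those of the stem cell markers. The part of such cells in the results was not tested.

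LIF binds a receptor made of Lifr and gp130, whose kinases phosphorylate STAT3. STAT3 then switches on Socs3, a feedback inhibitor of the same receptor, together with the naive pluripotency factors Klf4, Tfcp2l1 and others, and this signal keeps mouse embryonic stem cells in the naive state. Without it the cells drift towards the formative and primed states of the epiblast, marked by genes such as Otx2, Pou3f1 and Fgf5. Sorbitol draws water out of cells, and mammalian cells answer by taking up or making compatible solutes such as inositol, taurine and betaine, much of it under the transcription factor NFAT5.

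The S200 library had far more transcript than ND of several LIF and STAT3 target genes, among them Klf4, and of Tbx3. The hyperosmotic response list differed less, with a summed level of 2383 CPM in S200 and 1757 CPM in ND. S200 had far less of some formative genes, such as Otx2 and Pou3f1, and of the cyclin genes Ccnd1 and Ccnd2. The Nodal antagonist gene Lefty1, Id genes and the metallothionein genes Mt1 and Mt2 were also far lower in S200. Zfp42, whose promoter drives the reporter, stood at 521 CPM [506 to 536] in S200 and 524 CPM [508 to 539.7] in ND, a log2 ratio of -0.01 [-0.07 to 0.05]. In NS, Zfp42 had 562 CPM. Of 10180 genes with a mean of at least 5 CPM over the libraries compared, 2217 (21.8%) were at least 1.5-fold higher in S200 and 1273 (12.5%) at least 1.5-fold lower. At 2-fold, 939 (9.22%) were higher and 442 (4.34%) lower. The median log2 ratio over all 10180 was 0.09, with quartiles of -0.30 and 0.52, and 65.7% lay within 1.5-fold.

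A lower summed level cannot tell fewer barcodes with a transcript from less of it in each. The counts also depend on how the libraries are scaled. Median-of-ratios scaling sets the median log2 ratio over all genes with a UMI in both libraries to 0, and genes of few UMIs enter it. It shifted every log2 ratio by -0.19, which puts the median of the 10180 genes, 0.09 with CPM, below 0. Under it, 1496 genes (14.7%) were 1.5-fold higher and 2025 (19.9%) lower. Of genes 2-fold apart, 68.0% were higher in S200 with CPM and 47.2% with the other scaling. Counts under that second scaling are given beside the list counts below, as "median-scaled" counts. Each list count is to be read against the shares of all genes, 21.8% higher and 12.5% lower with CPM and 14.7% higher and 19.9% lower median-scaled. A number alone in parentheses after a gene is its log2 CPM ratio of S200 to ND. A gene or list with a log2 ratio or median between 0 and 0.19 changes sign between the scalings.

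A gene with 1 library under 5 CPM was measured only through the library where it was higher, so its place in a list's count is no support for a direction. Beside the lists for which this is stated below, there was 1 such gene in each of the naive, ion balance, metallothionein, G1, p53, heat shock, S100, primitive endoderm, basement membrane, streak, neuroectoderm, histone, small nucleolar RNA host and long non-coding RNA lists. There were 2 in each of the imprinted, Nodal, ATF4, interferon, germline, trophoblast and epithelial lists, 3 in the Wnt list and 4 in the FGF list.

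**Figure D1:**
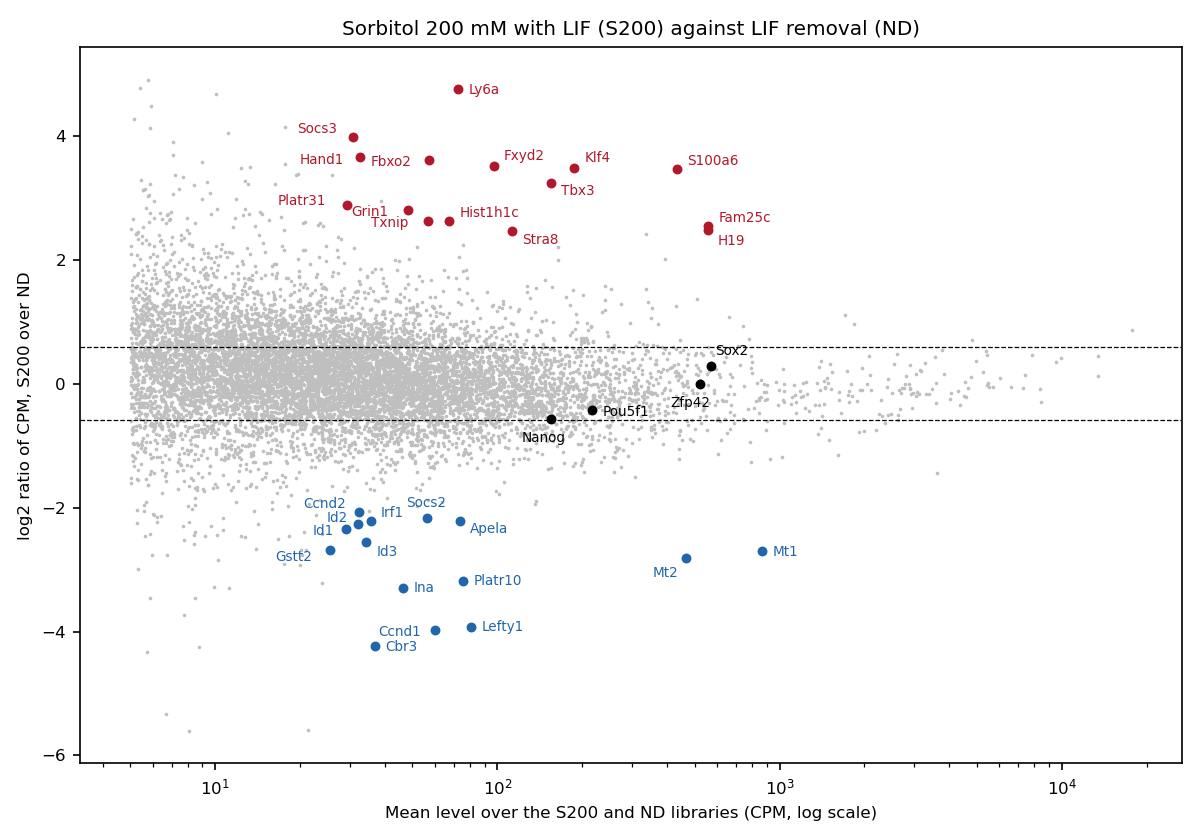
Log2 ratio of CPM, S200 over ND (vertical axis), against the mean CPM of these libraries (horizontal axis, log scale), for the 10180 genes that averaged 5 CPM or more. Red and blue points are the 15 highest and 15 lowest genes of at least 25 CPM mean, from Ly6a (4.75) to Stra8 (2.46) and from Cbr3 (-4.24) to Ccnd2 (-2.07), black points are general pluripotency markers, and dashed lines mark 1.5-fold; the grey cloud is centred near 0 and the black points lie close to it.

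Among LIF receptor and STAT3 target genes, 17 of 25 were measured, meaning a mean of at least 5 CPM. Of these, 10 were at least 1.5-fold higher in S200 and 1 lower, against 21.8% and 12.5% of all genes, with a median log2 ratio of 0.92 (9 higher and 1 lower median-scaled). For 3 of the 17, Socs3, Bcl3 and Jak2, ND was under 5 CPM, so they were measured only through S200. Socs3 and Bcl3 are among the 10 higher. The receptor gene Lifr was higher (22.6 CPM in S200 and 11.9 in ND, log2 0.92), whereas Il6st, which encodes gp130, was within 1.5-fold (27.1 CPM in S200 and 33.8 in ND, log2 -0.32), as were the kinase genes Jak1 (0.35) and Jak2 (0.14). Stat3, the transducer and one of its own targets, was higher (68.9 CPM in S200 and 19.2 in ND, log2 1.84).

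Socs3 (ENSMUSG00000053113; mm10 chromosome 11, 117966079 to 117970047, minus strand, GENCODE M21, as for all gene positions here) had 36.5 CPM in NS, 58.04 in S200, 42.9 in S250 and 44.98 in S300, against 3.67 in ND. ND alone was low, and S200 was the highest of the 5 libraries. These levels came from 535 UMIs in S200 and 29 in ND, and the log2 ratio of S200 to ND was 3.98 [3.44 to 4.58]. Bcl3, a co-regulator of NF-kB and a STAT3 target, followed the same order (15.1 CPM in NS, 29.4 in S200, 26.1 in S250 and 27.6 in S300, against 3.16 in ND; log2 ratio 3.22 [2.62 to 3.87]). Icam1, an adhesion molecule gene, was higher too (85.6 CPM in S200 and 18.5 in ND, log2 2.21), as were Tfcp2l1 (156 CPM in S200 and 65.8 in ND, log2 1.24), a transcription factor that carries LIF signals, the immediate early gene Junb (1.08) and Klf5 (0.73). Socs2, another gene of the cytokine inhibitor family, went the other way (38.7 CPM in NS, 20.5 in S200, 26.1 in S250 and 30.1 in S300, against 91.95 in ND; log2 ratio -2.17 [-2.404 to -1.93]). The kinase genes Pim1 (-0.24) and Pim3 (-0.12) were within 1.5-fold.

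STAT proteins bind the palindrome TTCNNNGAA. The 250 bases before the annotated start were searched for it on both strands, since the S200 and ND libraries differ in LIF. It stood in 1940 of 27025 RefSeq promoters (7.18%) and in 3 of the 21 promoters matched from the LIF and STAT3 list (14.3%), those of Socs3, Icam1 and Fgl2. Fgl2 was under 5 CPM. Bcl3, Klf4 and Stat3 had no match in this window, although Klf4 and Bcl3 had higher ratios of S200 to ND than Icam1. The Socs3 and Icam1 windows are shown because they hold a match and both genes were measured. The match is in capitals, read 5′ to 3′ on the gene's strand (RefSeq, GRCm38.p6).
Socs3: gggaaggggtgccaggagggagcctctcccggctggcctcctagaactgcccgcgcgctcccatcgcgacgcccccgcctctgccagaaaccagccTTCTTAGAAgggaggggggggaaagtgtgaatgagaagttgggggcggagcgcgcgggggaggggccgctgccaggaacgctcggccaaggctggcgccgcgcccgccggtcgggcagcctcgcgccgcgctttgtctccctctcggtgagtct
Icam1: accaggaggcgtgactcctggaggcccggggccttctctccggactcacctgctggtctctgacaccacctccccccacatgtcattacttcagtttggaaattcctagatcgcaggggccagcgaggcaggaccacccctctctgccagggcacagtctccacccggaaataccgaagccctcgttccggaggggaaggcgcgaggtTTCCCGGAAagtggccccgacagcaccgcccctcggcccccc
The first is chr11:117969367-117969616 on the minus strand, with the match starting 154 bases before the RefSeq start. By the GENCODE M21 position of Socs3, 117966079 to 117970047, this window lies inside the gene and not before its start. The second is chr9:21015690-21015939 on the plus strand, with the match 42 bases before it. A match is a string of letters and not a bound site.

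Among 29 measured naive pluripotency genes, 11 were higher in S200 and 5 lower (median log2 0.18), against 21.8% and 12.5% of all genes. Median-scaled, 8 were higher and 7 lower with a median of -0.01. The highest were Klf4 and Tbx3, transcription factor genes known to respond to LIF. Klf4 (ENSMUSG00000003032; chromosome 4, 55527143 to 55532466) had 102 CPM in NS, 344 in S200, 407 in S250 and 395 in S300, against 30.9 in ND, so the sorbitol libraries lay above NS and ND below it. Its log2 ratio of S200 to ND was 3.48 [3.29 to 3.67], an 11.1-fold difference. Tbx3 (ENSMUSG00000018604; chromosome 5, 119670669 to 119684724) had 105 CPM in NS, 279.7 in S200, 326 in S250 and 411 in S300, against 29.6 in ND, with a log2 ratio of 3.24 [3.05 to 3.44]. The 5-methylcytosine oxidase gene Tet2 (48.8 CPM in S200 and 15.6 in ND, log2 1.65), the secreted phosphoprotein gene Spp1 (1.49), the semaphorin co-receptor gene Nrp2 (1.26), the alkaline phosphatase gene Alpl (1.06) and Zfp57 (0.89), which protects imprints, were also higher. Dppa5a, among the most abundant stem cell transcripts, was 0.699 and the E-cadherin gene Cdh1 0.71 on the log2 scale.

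The 5 lower naive genes were the transcription factor genes Nr5a2 (34.3 CPM in S200 and 68.2 in ND, log2 -0.99), Klf2 (142 CPM in S200 and 282 in ND, log2 -0.99), Prdm14 (-0.96) and Nr0b1 (-0.73), and Dppa3 (74.96 CPM in S200 and 136 in ND, log2 -0.86), which guards maternal methylation in the early embryo. Klf2 and Klf4, paralogues with overlapping roles in naive cells, therefore lay on opposite sides: Klf2 had 226 CPM in NS, 142 in S200, 158 in S250 and 209 in S300, against 282 in ND, with ND the highest library. Nanog stood at 124 CPM [117 to 131] in S200 and 185 CPM [175 to 195] in ND, just inside 1.5-fold (-0.58; -0.77 median-scaled, which is past it). Esrrb (-0.28), Tcl1 (-0.19), Fgf4 (0.18) and Pecam1 (0.06) were within 1.5-fold.

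Core pluripotency genes are shared by naive and later states. Of 20 measured, 1 was higher in S200 and 9 lower (median log2 -0.51; 1 and 12 median-scaled), against 21.8% and 12.5% of all genes. Pou5f1, which encodes Oct4, had 185 CPM in S200 and 249 in ND (log2 -0.43 [-0.52 to -0.33]), and Sox2 had 630.2 in S200 and 514 in ND (log2 0.29 [0.23 to 0.35]), both within 1.5-fold. In NS, Pou5f1 had 248 CPM, near ND, and Sox2 had 358 CPM, below both S200 and ND. Among those lower were Mycn (8.76 CPM in NS, 5.21 in S200, 6.96 in S250 and 5.91 in S300, against 35.4 in ND), the let-7 inhibitor genes Lin28a (24.8 CPM in S200 and 81.5 in ND, log2 -1.71) and Lin28b (-0.997), the growth factor gene Gdf3 (-1.35), the RNA-binding protein gene L1td1 (265 CPM in S200 and 618 in ND, log2 -1.22), Utf1 (-1.200), the threonine dehydrogenase gene Tdh (-0.93) and Zfp281 (-0.81). For Mycn, ND was the high library and the other 4 were at or below 8.76 CPM. Tdgf1, the Nodal co-receptor gene also called Cripto, was the 1 higher gene (488 CPM in S200 and 197 in ND, log2 1.31); NS had 419 CPM, so here ND was the low library.

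Formative and primed epiblast genes were the list with the lowest median among those with at least 5 measured genes. Of 20 measured, 13 were lower in S200 and 1 higher (median log2 -0.88; 14 and 0 median-scaled), against 12.5% and 21.8% of all genes. For 4 of the 20, 1 library was under 5 CPM. Among these, Lef1, Fgf5 and Zic2 were under it in S200. They were measured only through ND, and they are in the count of lower genes. Lef1, a Wnt pathway transcription factor (ENSMUSG00000027985; chromosome 3, 131110471 to 131224356), had 3.701 CPM in NS, 0.868 in S200, 1.13 in S250 and 1.09 in S300, against 41.9 in ND. These are 8 UMIs in S200 and 331 in ND, with a log2 ratio of -5.59 [-6.82 to -4.597]. Fgf5, the growth factor gene of the post-implantation epiblast (chromosome 5, 98254184 to 98277030), had 3 UMIs in S200 and 103 in ND, which gives 0.325 CPM [0.0671 to 0.951] in S200 and 13.03 CPM [10.6 to 15.8] in ND and a log2 ratio with an interval of -7.62 to -3.74. For both genes ND stood apart from all libraries with LIF.

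The homeobox gene Otx2 was lower in S200 (24.5 CPM in S200 and 78.8 in ND, log2 -1.68), but its levels across the LIF libraries were not flat: 21.5 CPM in NS, 24.5 in S200, 49.9 in S250 and 62.2 in S300, against 78.8 in ND. S200 lay near NS, and S250 and S300 lay between NS and ND. Pou3f1, which encodes Oct6, had 12.05 CPM in NS, 13.2 in S200, 7.88 in S250 and 8.08 in S300, against 43.8 in ND, with all 3 sorbitol libraries far below ND. The zinc finger genes Zic2 (-2.85) and Zic5 (-2.39), Foxd3 (-1.49), Sox11 (-1.06), Etv5 (174 CPM in S200 and 328 in ND, log2 -0.92), Foxp1 (-0.84), Grhl2 (-0.81) and Tcf15 (-0.67) were lower too. The de novo DNA methyltransferase genes Dnmt3a (0.05) and Dnmt3b (-0.18) were within 1.5-fold, and the receptor gene Fgfr1 was the 1 higher gene (0.72).

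Many genes of the hyperosmotic response were higher in S200. Of 19 measured, 13 were higher and 0 lower (median log2 0.92; 11 and 2 median-scaled), against 21.8% and 12.5% of all genes. For 2 of the 13, Hspa1b and Rcsd1, ND was under 5 CPM, so they were measured only through S200. Transporters of compatible solutes were among the higher genes. Slc5a3, the myo-inositol transporter gene (ENSMUSG00000089774; chromosome 16, 92058322 to 92087473), had 5.78 CPM in NS, 31.5 in S200, 31.2 in S250 and 27.01 in S300, against 7.84 in ND, and its log2 ratio of S200 to ND was 2.004 [1.604 to 2.42]. Slc6a6, the taurine transporter gene, had 148 CPM in S200 and 75.1 in ND, log2 0.98, and Akr1b3, the aldose reductase gene whose enzyme makes sorbitol inside cells, 280.3 CPM in S200 and 148 in ND, log2 0.92. The betaine transporter gene Slc6a12 did not reach 5 CPM on average (34 UMIs in S200 and 4 in ND; log2 2.87 [1.38 to 4.82]). Nfat5 itself was higher (64.00 CPM in S200 and 35.7 in ND, log2 0.84).

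Sgk1, a kinase gene induced by cell shrinkage (ENSMUSG00000019970; chromosome 10, 21882184 to 21999903), had 25.3 CPM in NS, 117 in S200, 131 in S250 and 177 in S300, against 33.4 in ND. The log2 ratio of S200 to ND was 1.81 [1.62 to 2.01], and among the sorbitol libraries the level was higher at each higher dose. The water and glycerol channel gene Aqp3 (34.4 CPM in S200 and 8.98 in ND, log2 1.94), the kinase gene Wnk1 (392 CPM in S200 and 199.8 in ND, log2 0.97), which senses osmolarity and chloride, and the chaperone genes Hspa1b (11.8 CPM in S200 and 1.897 in ND, log2 2.64), Hspa4l (1.198) and Hspb8 (1.11) were higher. Hspa1b shares near-identical sequence with Hspa1a, so its level is uncertain. Not every member followed: the WNK substrate kinase genes Oxsr1 (-0.199) and Stk39 (-0.45) and the amino acid transporter gene Slc38a2 (452 CPM in S200 and 647 in ND, log2 -0.52) were within 1.5-fold. The core of the NFAT5 site, TGGAAA, searched on both strands, stood in 18.7% of all RefSeq windows and in 4 of 18 matched from the list (22.2%).

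The sodium pump sets the ion gradients that solute transporters run on. In a list of pump subunits, cotransporters and channels, 8 of 21 measured were higher in S200 and 2 lower (median log2 0.50; 5 and 2 median-scaled), against 21.8% and 12.5% of all genes. Fxyd2, the gene of a pump regulator (ENSMUSG00000059412; chromosome 9, 45399669 to 45410278), had 28.8 CPM in NS, 178 in S200, 204 in S250 and 141 in S300, against 15.7 in ND, a log2 ratio of 3.51 [3.24 to 3.78] between S200 and ND. The beta subunit genes Atp1b2 (7.76 CPM in NS, 35.8 in S200, 31.9 in S250 and 33.4 in S300, against 3.42 in ND) and Atp1b1 (189 CPM in S200 and 72.1 in ND, log2 1.39) and the potassium chloride cotransporter gene Slc12a7 (81.5 CPM in S200 and 24.4 in ND, log2 1.74) were higher. The beta subunit gene Atp1b3 was 0.86 on the log2 scale. The potassium channel gene Kcnk1 (8.24 CPM in S200 and 28.7 in ND, log2 -1.800) and Fxyd6 (-0.696) were lower.

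**Figure D2:**
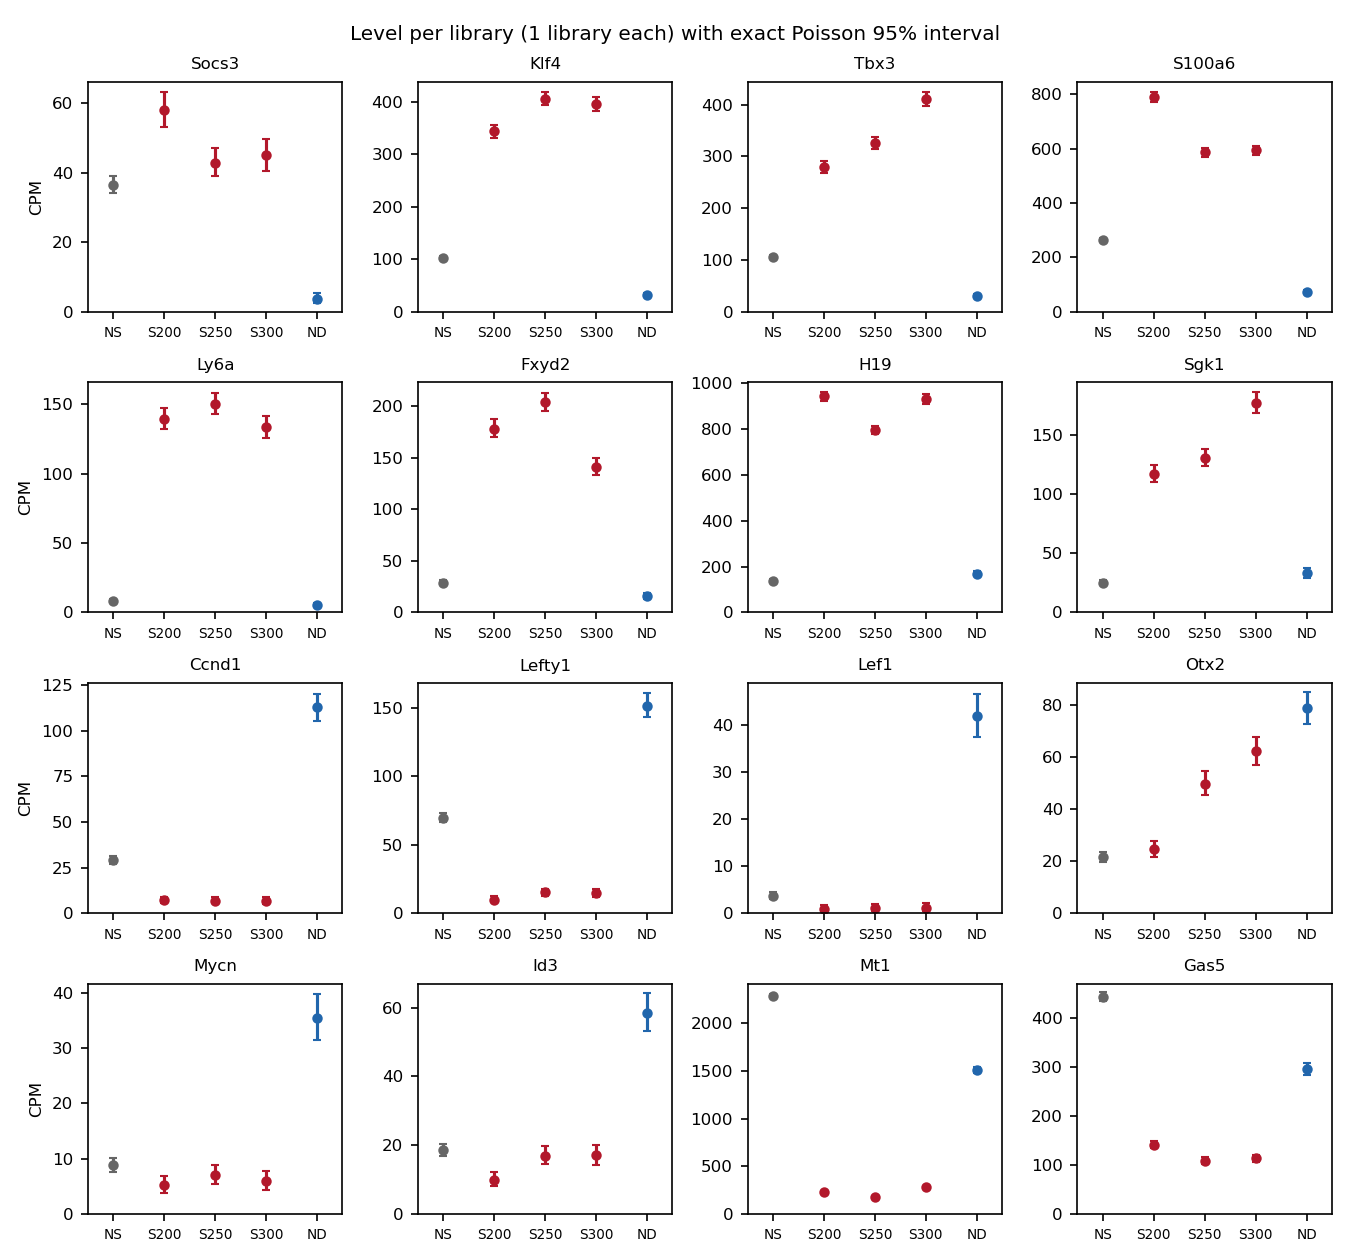
Level in CPM (vertical axes, each from 0) of 16 genes in the 5 libraries, with exact Poisson 95% intervals; grey is NS, red the 3 sorbitol libraries and blue ND, 1 library each. Socs3, Klf4, Tbx3, S100a6, Ly6a, Fxyd2, H19 and Sgk1 are low in ND, and Ccnd1, Lefty1, Lef1, Otx2, Mycn and Id3 are highest there, with Otx2 intermediate at 250 and 300 mM, whereas Mt1 and Gas5 are highest in NS.

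By size of difference alone, the gene with the highest ratio among those of at least 25 CPM mean was Ly6a, the gene of Sca-1 on the cell surface (ENSMUSG00000075602; chromosome 15, 74994877 to 74998031). It had 8.39 CPM in NS, 139.5 in S200, 150.3 in S250 and 134 in S300, against 5.19 in ND, with 1286 UMIs in S200 and 41 in ND, and a log2 ratio of 4.75 [4.301 to 5.24]. NS was nearly as low as ND, and all 3 sorbitol libraries were high. S100a6, a calcium-binding protein gene, had 265 CPM in NS, 791 in S200, 586 in S250 and 594 in S300, against 71.97 in ND, with a log2 ratio of 3.46 [3.34 to 3.58]. Here NS lay between S200 and ND. Fbxo2, which encodes a ubiquitin ligase subunit that binds N-glycans, had 36.8 CPM in NS, 105 in S200, 108 in S250 and 82.4 in S300, against 8.601 in ND (log2 3.62 [3.26 to 3.99]). Hand1, a transcription factor gene of trophoblast and mesoderm, had 29.4 CPM in NS, 60.4 in S200, 47.2 in S250 and 60.2 in S300, against 4.81 in ND (log2 3.65 [3.18 to 4.17]).

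Fam25c (954 CPM in S200 and 163 in ND, log2 2.55), the NMDA receptor subunit gene Grin1 (84.2 CPM in S200 and 12.02 in ND, log2 2.81), the thioredoxin-interacting protein gene Txnip (97.3 CPM in S200 and 15.8 in ND, log2 2.62) and the linker histone gene Hist1h1c (116 CPM in S200 and 18.8 in ND, log2 2.62) followed. Txnip had 40.5 CPM in S250 and 43.4 CPM in S300, so S200 alone was that high. Platr31, a non-coding gene annotated as antisense, had 39.9 CPM in NS, 51.5 in S200, 24.3 in S250 and 20.3 in S300, against 6.96 in ND (log2 2.89 [2.48 to 3.32]). The use of strand in counting is not given in the sources used here, so reads of Platr31 and of a gene opposite it cannot be told apart. Hist1h1c is uncertain because of near-identical copies.

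At the low end, Cbr3, a carbonyl reductase gene (ENSMUSG00000022947; chromosome 16, 93683215 to 93690990), had 38.1 CPM in NS, 3.69 in S200, 4.096 in S250 and 6.15 in S300, against 69.7 in ND, with a log2 ratio of -4.24 [-4.78 to -3.74]. Ina, which encodes the neurofilament protein alpha-internexin, had 39.9 CPM in NS, 8.57 in S200, 8.396 in S250 and 9.41 in S300, against 84.1 in ND (log2 -3.29 [-3.65 to -2.96]), and the non-coding gene Platr10 had 59.9 CPM in NS, 14.97 in S200, 22.01 in S250 and 27.9 in S300, against 136 in ND (log2 -3.18 [-3.45 to -2.92]). Gstt2, a glutathione transferase gene, had 6.83 CPM in S200 and 44.02 in ND, log2 -2.69. Apela, the gene of a peptide hormone that acts on the apelin receptor, had 50.3 CPM in NS, 26.04 in S200, 37.7 in S250 and 19.3 in S300, against 121 in ND (log2 -2.21 [-2.42 to -2.01]). In all of these the sorbitol libraries lay below NS, and ND lay above NS.

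NS separates genes that differ in 1 direction from those that lie on opposite sides of it. By the smaller of their distances to NS, the genes with S200 farthest above and ND farthest below were Klf4 (log2 ratio to NS 1.75 in S200 and -1.73 in ND), S100a6 (1.58 in S200 and -1.88 in ND), Fbxo2, Tbx3, Txnip, Fam25c, Grin1 and Hand1. Those with S200 farthest below and ND farthest above were Ccnd1 (-2.02 in S200 and 1.96 in ND), Platr10, Lefty1 (-2.81 in S200 and 1.12 in ND), Ina, Apela, Socs2, Irf1 and Id3. These ratios share the NS library. By contrast, Ly6a and Sgk1 were low in both NS and ND, and Mt1 and Gas5 were highest in NS.

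Nodal signalling is the pathway in which Tdgf1 acts, and its antagonist genes were lower in S200. Lefty1 (ENSMUSG00000038793; chromosome 1, 180935022 to 180938400) had 69.8 CPM in NS, 9.98 in S200, 15.3 in S250 and 14.6 in S300, against 152 in ND, and a log2 ratio of -3.93 [-4.25 to -3.62]. Lefty2 had 65.4 CPM in S200 and 127 in ND, log2 -0.96. Of 17 measured Nodal pathway genes 6 were lower and 4 higher (median log2 0.00; 6 and 4 median-scaled). The ligand gene Nodal (14.4 CPM in S200 and 30.9 in ND, log2 -1.097) and Skil (55.4 CPM in S200 and 134 in ND, log2 -1.27), a feedback inhibitor of SMADs, were lower. The receptor genes Acvr1b (16.6 CPM in S200 and 6.96 in ND, log2 1.25) and Acvr2a (1.13) and the convertase gene Pcsk6 (1.03) were higher, while Smad2 (0.002) and Smad4 (0.12) were level.

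The Id genes respond to bone morphogenetic protein (BMP) signals and encode inhibitors of differentiation factors, and all 4 were lower. Id3 had 18.5 CPM in NS, 9.98 in S200, 16.9 in S250 and 17.00 in S300, against 58.6 in ND (log2 -2.55 [-2.89 to -2.23]), Id1 had 33.8 CPM in NS, 9.55 in S200, 6.14 in S250 and 8.68 in S300, against 48.4 in ND (log2 -2.34 [-2.69 to -2.01]), Id2 had 11.1 CPM in S200 and 53.1 in ND, log2 -2.26, and Id4 had 3.25 CPM in S200 and 12.8 in ND, log2 -1.97. In the whole BMP list 4 of 14 measured genes were lower, these same 4, and 1 higher, the pseudoreceptor gene Bambi (0.72), with a median of -0.27 (5 lower and 0 higher median-scaled). For 4 of the 14, 1 library was under 5 CPM, among them Bambi, measured only through S200, and Id4, measured only through ND. The ligand gene Bmp4 (-0.22) and the receptor gene Bmpr1a (0.09) were within 1.5-fold.

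Of 19 measured Wnt pathway genes 4 were higher and 3 lower (median log2 0.27; 4 and 4 median-scaled). Lef1 was among the lower ones. Its relative Tcf7l2 (51.1 CPM in S200 and 27.95 in ND, log2 0.87), the feedback gene Axin2 (0.81), the receptor gene Fzd5 (24.4 CPM in S200 and 5.57 in ND, log2 2.13) and the Wnt secretion gene Wls (12.04 CPM in S200 and 3.79 in ND, log2 1.67) were higher. In the FGF and ERK list, 5 of 23 were higher and 6 lower (median 0.05; 4 and 7 median-scaled). The immediate early genes Egr1 (43.8 CPM in S200 and 10.6 in ND, log2 2.04), Fos (2.04) and Ier3 (1.83) were higher, and the ERK phosphatase genes Dusp4 (3.25 CPM in S200 and 16.1 in ND, log2 -2.303) and Dusp6 (-0.67) lower.

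Cyclin D1 and D2 transcripts were much lower in S200. Ccnd1 (ENSMUSG00000070348; chromosome 7, 144929931 to 144939925) had 29.1 CPM in NS, 7.16 in S200, 6.86 in S250 and 6.87 in S300, against 113 in ND, from 66 UMIs in S200 and 892 in ND, and a log2 ratio of -3.98 [-4.36 to -3.62]. Ccnd2 had 30.2 CPM in NS, 12.5 in S200, 16.2 in S250 and 14.4 in S300, against 52.2 in ND (log2 -2.07 [-2.38 to -1.76]), and Ccnd3 was within 1.5-fold (200.1 CPM in S200 and 146 in ND, log2 0.45). Of 22 measured G1 cyclin and Rb pathway genes 9 were lower and 3 higher (median log2 -0.31; 11 and 2 median-scaled). E2f3 (33.7 CPM in S200 and 84.4 in ND, log2 -1.32), Ccne2 (21.7 CPM in S200 and 53.4 in ND, log2 -1.299), Cdc25a (-0.802) and Ccne1 (-0.74), which act at the entry into S phase, were lower, as was the inhibitor gene Cdkn1a (64.98 CPM in S200 and 116 in ND, log2 -0.84). Rb1 (35.6 CPM in S200 and 17.7 in ND, log2 1.01) and the inhibitor gene Cdkn2d (0.98) were higher.

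Genes of S phase and of mitosis differed less. Of 30 S phase genes 5 were lower and 0 higher (median log2 -0.37; 13 and 0 median-scaled), among them Cdca7 (25.2 CPM in S200 and 61.5 in ND, log2 -1.29) and Mcm7 (174 CPM in S200 and 326 in ND, log2 -0.91). Of 30 genes of G2 and mitosis 5 were lower and 0 higher (median -0.28; 12 and 0 median-scaled), led by Hmgb2 (468 CPM in S200 and 1121 in ND, log2 -1.26), Cdc20 (-0.77) and Aurka (-0.74). With CPM, the shares that were lower in both lists were close to the 12.5% of all genes, but 0 were higher, against 21.8%. Both list medians lay below the median of all genes, 0.09. Of 23 p53 target and apoptosis genes 9 were lower and 2 higher (median -0.45; 12 and 2 median-scaled), with Phlda3 (-1.43), Bax (204 CPM in S200 and 396 in ND, log2 -0.95) and Sesn2 (-0.99) lower and the BH3 gene Pmaip1 higher (23.5 CPM in S200 and 4.05 in ND, log2 2.54).

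Metallothioneins, small cysteine-rich proteins that bind zinc and copper, were lower in S200. Mt1 (ENSMUSG00000031765; chromosome 8, 94179082 to 94180327) had 2287 CPM in NS, 231 in S200, 182 in S250 and 285 in S300, against 1509 in ND, and Mt2 (chromosome 8, 94172664 to 94173568) had 994 CPM in NS, 115 in S200, 126 in S250 and 169.8 in S300, against 814 in ND. The log2 ratios of S200 to ND were -2.71 [-2.77 to -2.64] for Mt1 and -2.82 [-2.91 to -2.73] for Mt2, and Mt3 was -1.44. All 3 sorbitol libraries were low, and ND lay below NS for both genes. Of 12 measured metallothionein and zinc genes 4 were lower and 0 higher (median -0.22; 4 and 0 median-scaled), the remaining one being the transporter gene Slc39a4 (-0.63). The zinc-sensing factor gene Mtf1 (0.28) and the exporter gene Slc30a1 (0.03) were within 1.5-fold. Metal response elements hold TGCACNC or TGCGCNC, and either stood on 1 of the strands in 21.3% of all RefSeq windows, in 4 of 10 matched from the list and, 3 times, in that of Mt2. The Mt1 window held 1 match, starting 23 bases before its RefSeq start. That of Mt2, which held more, is shown with the matches in capitals (plus strand, chr8:94172368-94172617, GRCm38.p6).
Mt2: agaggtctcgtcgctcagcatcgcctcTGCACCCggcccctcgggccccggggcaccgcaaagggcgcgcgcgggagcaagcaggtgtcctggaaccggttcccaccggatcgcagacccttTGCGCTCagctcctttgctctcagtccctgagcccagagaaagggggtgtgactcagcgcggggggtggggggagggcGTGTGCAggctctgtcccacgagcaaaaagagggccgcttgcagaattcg

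Iron genes had 3 of 11 higher and 3 lower (median log2 -0.22; 2 and 5 median-scaled). The transferrin receptor gene Tfrc (335 CPM in S200 and 146 in ND, log2 1.19) and the iron regulatory protein gene Ireb2 (0.83) were higher, and the ferritin heavy chain gene Fth1 (994 CPM in S200 and 1743 in ND, log2 -0.81) and the iron exporter gene Slc40a1 (6.29 CPM in S200 and 25.4 in ND, log2 -2.01) lower. Ftl1 (-1.19), the ferritin light chain gene, has near-identical copies and is uncertain.

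Of 33 genes of ATF4 and amino acid stress 9 were lower and 2 higher (median log2 -0.30; 13 and 2 median-scaled), against 12.5% and 21.8% of all genes. The cystine transporter gene Slc7a11 (3.797 CPM in S200 and 24.2 in ND, log2 -2.67), Atf3 (3.69 CPM in S200 and 13.3 in ND, log2 -1.85), Trib3 (-0.76) and Atf4 (125 CPM in S200 and 197 in ND, log2 -0.66) were lower, and Ddit3, which encodes the factor CHOP, was higher (57.2 CPM in NS, 118 in S200, 72.7 in S250 and 61.3 in S300, against 28.6 in ND; log2 2.04 [1.84 to 2.26]). Chaperones of the endoplasmic reticulum had 4 of 18 higher, close to the 21.8% of all genes, and 0 lower (median 0.48; 2 and 1 median-scaled), with Sdf2l1 (0.81), Hyou1 (0.801) and Hspa5 (374 CPM in S200 and 244 in ND, log2 0.61) among them. Heat shock and cytosolic chaperone genes had 3 of 19 higher and 2 lower (median -0.04; 2 and 3 median-scaled), where the mitochondrial chaperonin genes Hspe1 (538 CPM in S200 and 1033 in ND, log2 -0.94) and Hspd1 (-0.599) were the lower pair.

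Of 28 measured genes of glycolysis and hypoxia 10 were higher and 3 lower (median log2 0.33; 7 and 5 median-scaled). The glucose transporter genes Slc2a3 (2338 CPM in S200 and 1081 in ND, log2 1.11) and Slc2a1 (552 CPM in S200 and 339 in ND, log2 0.703), the hexokinase genes Hk1 (82.2 CPM in S200 and 26.2 in ND, log2 1.65) and Hk2 (971 CPM in S200 and 509 in ND, log2 0.93) and the phosphofructokinase gene Pfkp (361 CPM in S200 and 121 in ND, log2 1.58) were higher. Gapdh (1642 CPM in S200 and 2765 in ND, log2 -0.75), Ldhb (-0.699) and Mif (-0.77) were lower, and Aldoa (-0.47), Tpi1 (-0.46) and Pkm (-0.27) lay below 0 within 1.5-fold. Ero1l, an oxidase gene of disulfide formation, had 281 CPM in NS, 631 in S200, 310.3 in S250 and 339.6 in S300, against 156 in ND (log2 2.02 [1.93 to 2.11]).

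Of 30 nuclear-encoded respiratory chain genes 2 were higher and 0 lower (median log2 0.08; 0 and 1 median-scaled), and of 13 mitochondrially encoded genes 1 was higher and 0 lower (median -0.10; 0 and 2 median-scaled). Cholesterol and lipid synthesis genes had 7 of 29 higher and 1 lower (median 0.27; 2 and 1 median-scaled), with Msmo1 (126 CPM in S200 and 66.8 in ND, log2 0.92), Dhcr7 (0.89) and Scd1 (0.72) higher and the desaturase gene Fads2 (41.9 CPM in S200 and 81.7 in ND, log2 -0.96) lower.

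Many genes of the basement membrane were higher in S200. Of 24 measured genes of basement membrane and matrix 15 were higher and 2 lower (median log2 0.79; 12 and 2 median-scaled), against 21.8% and 12.5% of all genes. The laminin genes Lama1 (29.5 CPM in S200 and 4.55 in ND, log2 2.696) and Lamc1 (68.5 CPM in S200 and 33.3 in ND, log2 1.04), the collagen IV genes Col4a1 (59.4 CPM in S200 and 19.2 in ND, log2 1.63) and Col4a2 (1.35), the nidogen gene Nid1 (53.6 CPM in S200 and 18.97 in ND, log2 1.498), the collagen-modifying enzyme gene Plod2 (136 CPM in S200 and 48.4 in ND, log2 1.49) and the laminin receptor gene Itga6 (138 CPM in S200 and 61.3 in ND, log2 1.17) were higher. Lamb1 (-0.79) and Col18a1 (87.1 CPM in S200 and 223 in ND, log2 -1.36) were lower. The list of primitive and extraembryonic endoderm shares several of these genes, and 6 of its 11 measured members were higher and 2 lower (median 1.04; 6 and 2 median-scaled). Its transcription factor genes did not average 5 CPM: Gata6 had 6.29 CPM in S200 and 2.15 in ND, log2 1.55, Gata4 2.495 CPM in S200 and 2.15 in ND, log2 0.21, and Sox17 10 UMIs in S200 and 4 in ND. Apoe, which encodes a lipid carrier, was lower (154 CPM in S200 and 393 in ND, log2 -1.35).

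Epithelial and mesenchymal genes lay on both sides. Of 16 measured 8 were lower and 5 higher (median log2 -0.57; 9 and 3 median-scaled), against 12.5% and 21.8% of all genes, with the desmosome gene Dsp (30.7 CPM in S200 and 68.3 in ND, log2 -1.15), the splicing regulator gene Esrp1 (9.87 CPM in S200 and 32.4 in ND, log2 -1.71) and the claudin genes Cldn4 (-1.27) and Cldn6 (-1.02) lower and Fn1 (283 CPM in S200 and 148 in ND, log2 0.93) and Vim (0.73) higher. Tagln, the gene of an actin-binding protein, had 3 UMIs in S200 and 125 in ND, or 0.325 CPM in S200 and 15.8 in ND, with an interval of -7.899 to -4.02 for the log2 ratio. Of 20 actin and cytoskeleton genes 6 were lower and 0 higher (median -0.26; 8 and 0 median-scaled), including Actg1 (999 CPM in S200 and 2218 in ND, log2 -1.15), Amotl2 (10.1 CPM in S200 and 37.1 in ND, log2 -1.88) and the tubulin genes Tuba1a (-0.98) and Tuba1b (-0.91), whereas Actb was level (-0.101). Of 12 S100 and annexin genes 4 were higher and 1 lower (median 0.19; 2 and 2 median-scaled). S100a4, which lies next to S100a6 on chromosome 3, had 105 UMIs in S200 and 1 in ND, or 11.4 CPM in S200 and 0.127 in ND, with an interval of 3.98 to 11.81 for the log2 ratio.

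Few genes of other lineages could be measured. Of 13 trophoblast genes 5 were lower and 3 higher (median log2 0.01; 5 and 3 median-scaled with a median of -0.18). The keratin gene Krt19 (43.3 CPM in S200 and 16.9 in ND, log2 1.35) and the cadherin gene Cdh3 (1.21) were higher beside Hand1, and Krt18 (-0.86) and Plet1 (-0.62) lower. Only 3 of 20 streak and mesoderm genes were measured, with 1 higher (Hand1) and 0 lower (median 0.28; 1 and 0 median-scaled), and the streak gene Eomes was within 1.5-fold (21.2 CPM in S200 and 17.5 in ND, log2 0.28). Of 3 measured neuroectoderm genes 1 was higher, Nes (9.004 CPM in S200 and 4.05 in ND, log2 1.15), and 1 lower, Sox11 (median -0.47; 1 and 2 median-scaled). The 1 measured definitive endoderm gene, Trh, was lower (12.4 CPM in S200 and 19.98 in ND, log2 -0.69; 0 higher and 1 lower under both scalings). Of 4 measured fibroblast genes, all with 1 library under 5 CPM, 1 was higher (S100a4) and 1 lower (Tagln), with a median of 0.24 (1 and 1 median-scaled). Both measured genes of the two-cell-like state list, Tcstv3 (13.99 CPM in S200 and 1.39 in ND, log2 3.33) and Usp17lc (13.1 CPM in S200 and 1.26 in ND, log2 3.38), were higher (median 3.35; 2 and 0 median-scaled). They passed the 5 CPM mean through S200 alone, and both belong to families of near-identical copies.

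Germline genes moved in both directions. Of 16 measured 7 were higher and 5 lower (median log2 0.05; 6 and 5 median-scaled with a median of -0.14). The meiotic entry genes Stra8 (48.3 CPM in NS, 191 in S200, 196 in S250 and 167 in S300, against 34.7 in ND; log2 2.46 [2.28 to 2.65]) and Meioc (71.3 CPM in S200 and 18.1 in ND, log2 1.98), Dazl (28.6 CPM in S200 and 6.45 in ND, log2 2.15) and Taf7l (26.7 CPM in S200 and 4.301 in ND, log2 2.63) were higher, while Prdm1 (5.64 CPM in S200 and 36.3 in ND, log2 -2.69) and Nanos3 (2.39 CPM in S200 and 14.4 in ND, log2 -2.595), genes of primordial germ cells, Sycp3 (-1.09) and Tex19.1 (-1.05) were lower. Interferon and innate immune genes had 6 of 19 higher and 4 lower (median 0.27; 5 and 7 median-scaled). Irf1 (31.1 CPM in NS, 12.6 in S200, 11.3 in S250 and 12.1 in S300, against 58.4 in ND; log2 -2.22 [-2.52 to -1.92]) and Bst2 (12.7 CPM in S200 and 32.4 in ND, log2 -1.35) were lower, and Stat2 (35.4 CPM in S200 and 10.4 in ND, log2 1.77), H2-K1 (85.9 CPM in S200 and 39.1 in ND, log2 1.14) and Ly6a higher.

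Among imprinted genes the neighbours H19 and Igf2 were much higher. H19, a non-coding RNA (ENSMUSG00000000031; chromosome 7, 142575529 to 142578143), had 139 CPM in NS, 943 in S200, 794 in S250 and 932 in S300, against 169 in ND, a log2 ratio of 2.48 [2.39 to 2.56]. NS and ND were both low. Igf2, the growth factor gene next to it (chromosome 7, 142650766 to 142666816), had 104 UMIs in S200 and 4 in ND and 1.22 CPM in NS, 11.3 in S200, 15.4 in S250 and 15.6 in S300, against 0.506 in ND, with an interval of 3.08 to 6.38 for the log2 ratio. Of 22 measured imprinted genes 6 were higher and 5 lower (median log2 -0.14; 6 and 7 median-scaled). Peg10 (190.5 CPM in S200 and 64.1 in ND, log2 1.57) and the receptor gene Igf2r (68.8 CPM in S200 and 29.5 in ND, log2 1.22) were higher, and Impact (109.7 CPM in S200 and 267 in ND, log2 -1.28), Snrpn (62.8 CPM in S200 and 121 in ND, log2 -0.95), Mest (-0.84) and Meg3 (98.4 CPM in S200 and 156 in ND, log2 -0.67) lower.

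Most genes of each chromatin list were within 1.5-fold, as were 65.7% of all genes. These were 11 of 16 DNA methylation enzyme genes, 20 of 27 chromatin regulators and 11 of 19 histone genes. The share of chromatin regulators that were higher was under the 21.8% of all genes. Of 16 DNA methylation enzyme genes 3 were higher and 2 lower (median log2 0.04; 3 and 3 median-scaled), with Tet3 (1.23) higher beside Tet2 and Tet1 level (302 CPM in S200 and 321 in ND, log2 -0.09). Of 27 chromatin regulators 3 were higher and 4 lower (median 0.15; 2 and 5 median-scaled), among them Hmga2 (5.82 CPM in NS, 33.8 in S200, 43.2 in S250 and 60.9 in S300, against 7.59 in ND), Kdm6b (135 CPM in S200 and 56.2 in ND, log2 1.26) and, on the low side, Hmgn2 (58.4 CPM in S200 and 216 in ND, log2 -1.89) and Hmga1 (-1.66). Of 19 histone genes 5 were higher and 3 lower (median 0.14; 5 and 4 median-scaled). H1f0, a replication-independent linker histone gene, was higher (57.5 CPM in S200 and 15.9 in ND, log2 1.85).

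Many host genes of small nucleolar RNAs were lower in S200. Of 18 measured 10 were lower and 1 higher (median log2 -0.77; 13 and 0 median-scaled), against 12.5% and 21.8% of all genes. Gas5 had 443 CPM in NS, 141 in S200, 109 in S250 and 113 in S300, against 296 in ND, Snhg1 had 84.6 CPM in S200 and 177 in ND, log2 -1.06, Snhg12 41.8 CPM in S200 and 104 in ND, log2 -1.31, Snhg9 26.8 CPM in S200 and 100.3 in ND, log2 -1.904 and Zfas1 49.03 CPM in S200 and 105 in ND, log2 -1.11. All 3 sorbitol libraries were below both NS and ND for Gas5. Among 16 nuclear and stem cell long non-coding RNAs 3 were higher and 5 lower (median -0.24; 3 and 7 median-scaled). Malat1, a nuclear RNA, had 14103 CPM in NS, 22948 in S200, 22155 in S250 and 16622 in S300, against 12548 in ND, and Neat1, the RNA of paraspeckles, had 181 CPM in NS, 376 in S200, 305 in S250 and 288 in S300, against 130.3 in ND (log2 1.53 [1.43 to 1.63]).

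Translation factors had 4 of 22 lower and 1 higher (median log2 -0.16; 6 and 0 median-scaled), with Pabpc1 (1040.4 CPM in S200 and 1951 in ND, log2 -0.91), Eif5a (-0.71) and Eif4ebp1 (-0.73) lower. Proteasome genes had 6 of 27 lower and 0 higher (median -0.39; 11 and 0 median-scaled), led by the activator genes Psme1 (71.2 CPM in S200 and 146 in ND, log2 -1.04) and Psme2 (-0.77). Of 84 cytosolic ribosomal protein genes 3 were higher and 1 lower (median -0.07; 3 and 8 median-scaled). Lysosome and autophagy genes had 8 of 27 higher and 2 lower (median 0.21; 5 and 4 median-scaled), near the 21.8% and 12.5% of all genes, including Gabarapl2 (501 CPM in S200 and 174 in ND, log2 1.53) and Lgmn (1.39), whereas the autophagy receptor gene Sqstm1 was lower (180.1 CPM in S200 and 378 in ND, log2 -1.07).

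**Figure D3:**
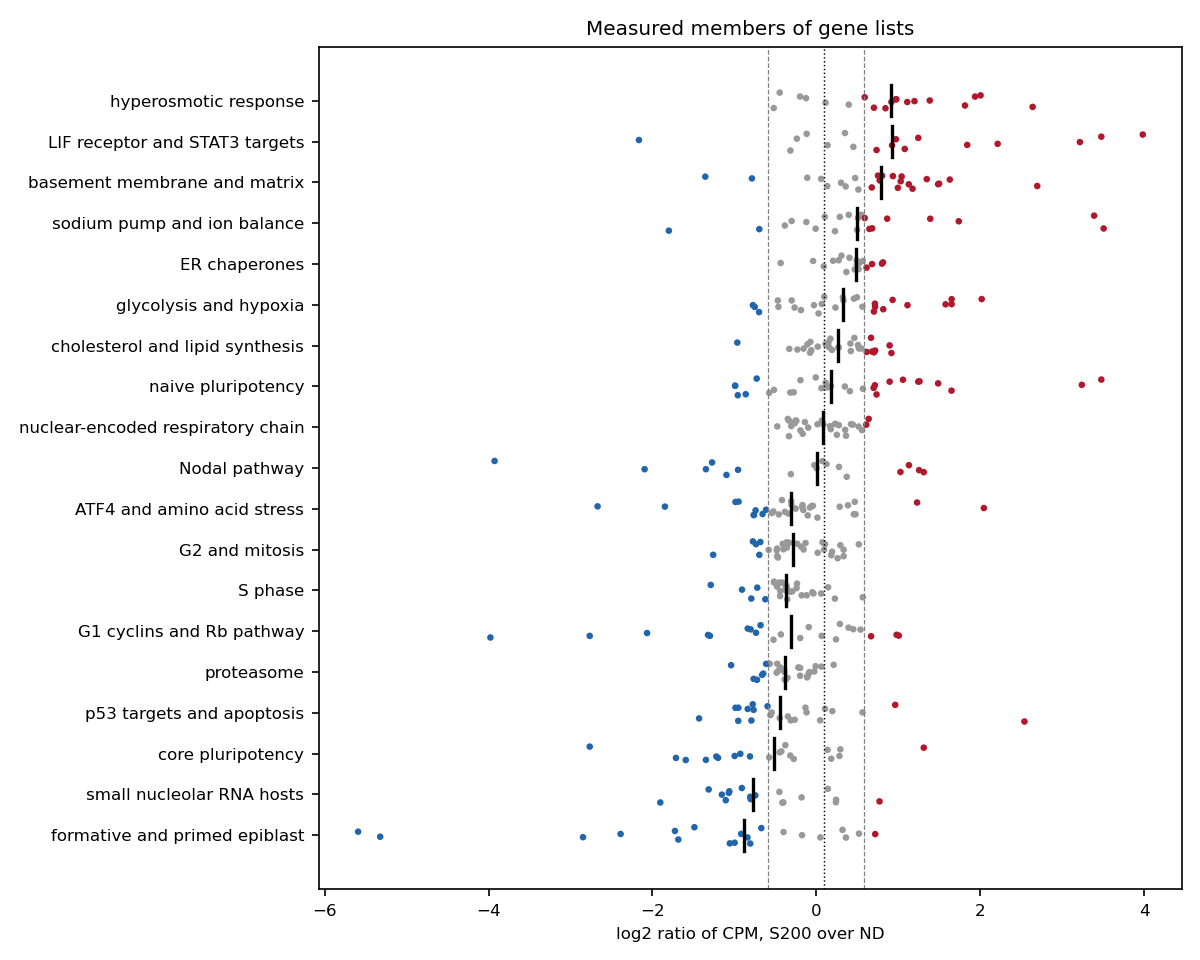
Log2 ratio of CPM, S200 over ND (horizontal axis), of the measured members of 19 gene lists (rows), with red and blue points past 1.5-fold (dashed lines), black bars at list medians and the dotted line at the median of all genes, 0.09. The list medians run from 0.92 for the LIF and hyperosmotic lists down to -0.77 for small nucleolar RNA hosts and -0.88 for formative and primed genes, and most lists hold members on both sides.

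Higher sorbitol doses were read against the same ND library, so the following values share it. At 250 mM 20.8% of all 10123 genes tested were 1.5-fold higher than in ND and 9.36% lower (8.31% and 3.32% at 2-fold). At 300 mM 26.1% of 10140 were 1.5-fold higher and 10.9% lower (11.3% and 3.83% at 2-fold). These shares cover genes averaging 5 CPM or more over ND and the library of that dose. The list counts that follow keep, at every dose, the members measured over S200 and ND. LIF and STAT3 genes had 10, 11 and 11 members higher and 1, 1 and 1 lower at 200, 250 and 300 mM (medians 0.92, 1.04 and 1.07). Naive genes had 11, 13 and 14 higher and 5, 3 and 2 lower (medians 0.18, 0.42 and 0.56). Core genes had 1, 1 and 3 higher and 9, 6 and 5 lower (medians -0.51, -0.20 and -0.30), and formative genes 1, 1 and 2 higher and 13, 11 and 10 lower (medians -0.88, -0.80 and -0.64). Hyperosmotic genes had 13, 12 and 12 higher and 0, 1 and 1 lower (medians 0.92, 0.84 and 0.997), and basement membrane genes 15, 13 and 16 higher and 2, 2 and 2 lower (medians 0.79, 0.74 and 1.08).

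Single genes did not all keep their distance from ND. Zfp42 was level with ND at 200 mM (-0.01), and stood at 778 CPM in S250 and 879 CPM in S300, log2 ratios of 0.57 and 0.75. Nanog was -0.58, -0.13 and -0.47, and Otx2 -1.68, -0.66 and -0.34 over the 3 doses on the log2 scale. L1td1 was -1.22, -0.57 and -0.32. In contrast Ccnd1 (-3.98, -4.04 and -4.04), Cbr3 (-4.24, -4.09 and -3.502) and Lef1 (-5.59, -5.22 and -5.27) stayed far below ND at every dose. Txnip (2.62, 1.36 and 1.46), Platr31 (2.89, 1.802 and 1.54) and Ddit3 (2.04, 1.35 and 1.100) had their highest ratios at 200 mM.

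To look at single barcodes, kept barcodes were thinned to 500 UMIs each. In this reading 52.98% [51.99 to 53.96] of S200 barcodes and 33.1% [32.1 to 34.1] of ND barcodes had at least 1 UMI of the LIF and STAT3 list, 69.0% in S200 and 58.5% in ND of the hyperosmotic list, and 27.4% in S200 and 38.4% in ND of the formative list. If every barcode of a library were drawn from that library's summed profile, the binomial shares would be 53.7% in S200 and 33.0% in ND for the LIF list and 27.2% in S200 and 39.4% in ND for the formative list. The distributions overlap widely: at this depth most barcodes hold 0 or 1 UMI of a list, and single barcodes cannot be assigned to a state.

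**Figure D4:**
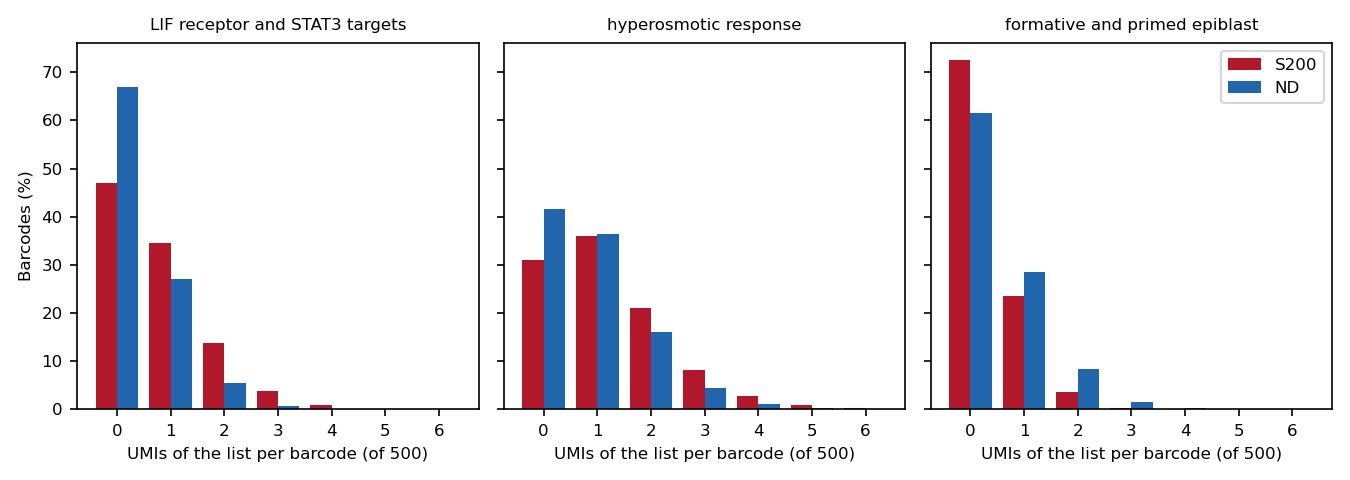
Percent of barcodes (vertical axis, from 0) with a given number of UMIs of a gene list after thinning to 500 UMIs (horizontal axis), S200 in red and ND in blue. For the LIF list 47.0% of S200 barcodes and 66.9% of ND barcodes have 0 UMIs, for the hyperosmotic list 31.0% in S200 and 41.5% in ND, and for the formative list 72.6% in S200 and 61.6% in ND.

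Klf4 was seen in 15.5% [14.8 to 16.2] of S200 barcodes and 1.63% [1.39 to 1.91] of ND barcodes after thinning, and in 26.5% of S200 and 2.53% of ND barcodes without it. S100a6 was seen in 31.2% in S200 and 3.496% in ND (49.6% and 5.84% unthinned), Ly6a in 6.25% in S200 and 0.249% in ND (11.5% and 0.433% unthinned), and Ccnd1 in 0.391% in S200 and 5.58% in ND (0.661% and 9.11% unthinned). Mt1 was seen in 10.5% of S200 barcodes and 49.6% of ND barcodes (18.2% and 66.3% unthinned). Median depths were 888 UMIs in S200 and 827 in ND before thinning. The libraries hold no cell type known to lack these genes, so the level of free RNA was not measured; the blood markers Hbb-bs and Ptprc together had 0.11 CPM in S200 and 0.13 CPM in ND.

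The typical gene varied over barcodes as sampling from 1 profile would give. The median ratio of the variance to that expectation was 1.003 in S200, over 3767 genes, and 1.002 in ND, over 3643 genes, averaging 0.02 UMIs or more. With so few UMIs per barcode a ratio can stay near 1 where cells differ, so these medians cannot show that the cells are alike. H19 and Malat1 had the highest ratios in both libraries. H19 had a ratio of 2.48 in S200 and 1.44 in ND, and Malat1 3.31 in S200 and 2.36 in ND. This ratio can rise with a gene's mean, so it does not rank the libraries by spread. H19 averaged 0.471 UMIs per thinned barcode in S200 and 0.0824 in ND, and Malat1 11.4 in S200 and 6.24 in ND. H19 was seen in 26.4% of S200 barcodes (37.1% unthinned), where 1 profile would give 37.6% at 500 UMIs, and in 6.75% of ND barcodes (10.996% unthinned), where it would give 7.91%. At least 3 H19 UMIs stood in 488 S200 barcodes (4.89%, with 1.22% for 1 profile) and in 22 ND barcodes (0.238%, with 0.0087% for 1 profile). At least 5 stood in 137 S200 barcodes and 3 ND barcodes. Klf4 had a ratio of 1.06 in S200 and 1.01 in ND.

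**Figure D5:**
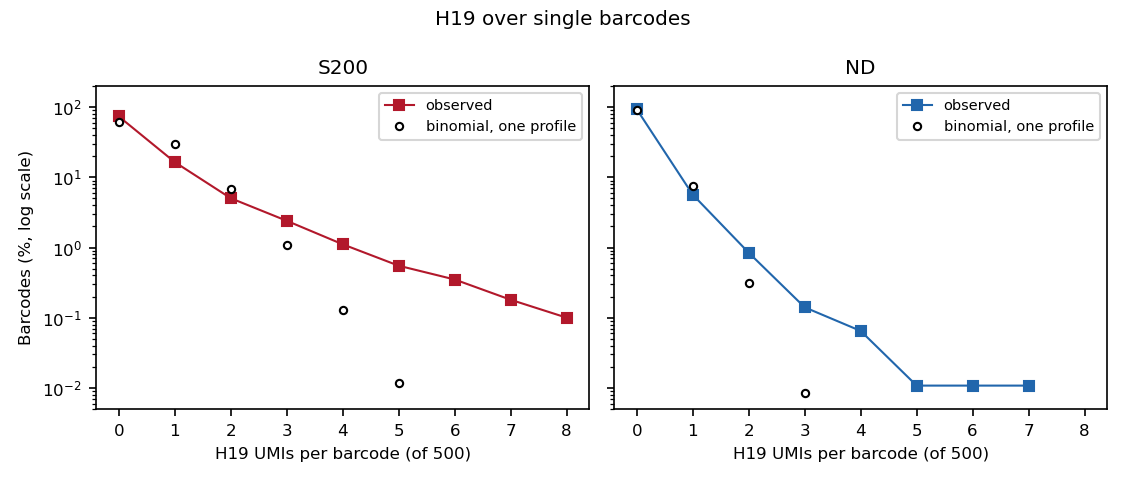
Percent of barcodes (vertical axis, log scale) with a given number of H19 UMIs after thinning to 500 UMIs (horizontal axis), in S200 (left, red) and ND (right, blue); open circles are the binomial shares if every barcode had the library's summed profile. In S200 4.89% of barcodes have 3 or more UMIs, against 1.22% for 1 profile, and in ND 0.238%, against 0.0087%.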

How the data were processed

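Single barcodes of the REX-1 RFP mouse embryonic stem cell line were counted in 5 libraries, 1 per condition, and each gene by barcode matrix of 32285 genes holds whole UMI counts as deposited. The deposited counts were written by Cell Ranger, version 6.0.1 per the file headers, and the submitters' processing notes name mm10, R 4.1.2 and Seurat 4.1.1. The labels' protocol names a bulk 3′ kit after Trizol extraction, which differs from the droplet matrices in the files. The rule that gave 10000 barcodes per library, the annotation and the use of strand are not given in the sources used for this text, and the reporter transcript was not analysed here.

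Barcodes with under 500 genes were left out (15 in S200, 760 in ND). No doublet caller was run. Counts were summed per gene and divided by the library total, which gives CPM, and S200 was divided by ND. The log2 ratio has a conditional exact binomial 95% interval, a level an exact Poisson one and a share of barcodes a Clopper-Pearson one. These cover counting error only. A gene was measured at a mean of at least 5 CPM in the libraries compared and counted as higher or lower at 1.5-fold. The code was tested on simulated counts. For barcodes, counts were thinned to 500 UMIs, and no kept barcode had fewer. The members and the 46 gene lists were chosen with earlier results of these data known. Genes were named by rule: the 15 highest and 15 lowest of at least 25 CPM mean, the 8 on each side of NS, 4 general markers, members of the LIF, naive, core, formative and hyperosmotic lists, and up to 8 per other list. Other list members were named after their values were seen, mostly because they were close to level or not measured: Actb, Aldoa, Atf4, Bmpr1a, Ccne1, Cdc25a, Dusp6, Gapdh, Gata4, Gata6, Ldhb, Lefty2, Mest, Mtf1, Pcsk6, Pkm, Slc30a1, Smad2, Smad4, Sox17, Tet1, Tex19.1, Tpi1 and Vim. Alternatives were median-of-ratios scaling, at least 5 CPM in either library, a mean of at least 5 CPM over 5 libraries, a mean of at least 20 CPM or no filter on level, at least 600 genes per barcode or no barcode filter, at most 10% mitochondrial UMIs, barcodes without the top 5% of UMIs, totals without mitochondrial and ribosomal protein genes, and thinned barcodes. Some list members are counted but not reported by name here. Python 3.11.15, numpy 2.4.6, scipy 1.17.1, pandas 2.3.3 and matplotlib 3.10.9 were used.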

Additional observations from a re-analysis of the deposited data

Results flagged for a closer look

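Nr0b1, the gene of the orphan nuclear receptor Dax1, lay on opposite sides of ND at the ends of the dose range. It had 14.97 CPM in S200, 32.8 CPM in S250 and 42.5 CPM in S300, against 24.8 CPM in ND. The log2 ratio to ND was -0.73 in S200 and 0.78 in S300, with 0.40 in S250 between them. Both ratios share the ND library, and the difference was not tested because each dose has 1 library.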

How the results depend on the processing

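There is 1 library per condition, so no library could be left out, and every value describes these libraries. No paired analysis was possible because each condition has 1 library and no result comes from a test. The 34 genes named for the size of their difference or as general markers kept their direction under all 11 alternatives, except Zfp42. It lay between -0.20 and 0.02 (log2). For the genes named for size this is no test of robustness, because they were picked as the most extreme ratios of these same counts. The least extreme of them, Ccnd2, had a log2 ratio of -2.07, which a shift of 0.19 cannot reverse. Filters on level choose which genes are counted and leave the ratio of each gene unchanged. Median-of-ratios scaling moved 11 of the 34 beyond their counting interval and the minimum of 600 genes, which leaves 3600 S200 and 1802 ND barcodes, moved 6. Median-of-ratios scaling put 2025 genes 1.5-fold and 710 genes 2-fold lower in S200, against 1273 and 442 with CPM, because it lowers every ratio by 0.19. A mean of at least 20 CPM left 901 genes 1.5-fold higher and 802 lower (309 and 224 at 2-fold), and no filter on level gave 4988 higher and 2286 lower (2837 and 971 at 2-fold), since the number of genes tested changes. Median-of-ratios scaling lowers each of the 46 list medians by that same 0.19, whatever the list. The median of the definitive endoderm list, -0.69 as reported, reversed to 0.67 with no filter on level, where genes of a few UMIs enter it. With at least 20 CPM 3 of the 46 lists had no gene left. Genes under 5 CPM are the ones that depth limits.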

Other observations

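Gene families outside the lists were also counted by symbol, a choice made after values were seen. Of 78 measured mitochondrial ribosomal protein genes (Mrpl and Mrps) 26 were at least 1.5-fold lower in S200 than in ND and 1 higher, with a median log2 ratio of -0.39 (39 and 1 median-scaled), against 12.5% and 21.8% of all genes. Cytosolic ribosomal protein genes had a median of -0.07. Solute carriers had 66 of 173 higher and 17 lower (median 0.42; 47 and 26 median-scaled). The myo-inositol transporter gene Slc5a3 was among the 4 highest of these and the cystine transporter gene Slc7a11 the lowest.

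Of 12 measured tubulin genes 5 were lower and 1 higher (median log2 -0.53; 7 and 0 median-scaled), and of 29 kinesin genes 8 were higher and 2 lower (median 0.24; 4 and 4 median-scaled). Of 27 nucleolar genes (Nop, Utp and Nol) 5 were lower and 1 higher (median -0.36; 12 and 0 median-scaled). Of 10 SR splicing factor genes 3 were lower and 0 higher (median -0.43; 6 and 0 median-scaled). Zinc finger protein genes were centred near 0, with 42 of 232 higher and 33 lower (median 0.02; 31 and 48 median-scaled).

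H19 varied over barcodes more than sampling from 1 profile would give in every library. The ratio of its variance to that expectation was 1.56 in NS, 2.48 in S200, 3.03 in S250 and 2.55 in S300, and 1.44 in ND. Its mean per thinned barcode was 0.0735 UMIs in NS, 0.471 in S200, 0.3885 in S250 and 0.463 in S300, and 0.0824 in ND. The ratio can rise with the mean, so these values do not rank the libraries by spread.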
